A study of Mus musculus with 18 samples.

Results

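Tslp, Gal, Nptx1 and Apln are 4 genes for secreted proteins whose counts differed between Hoxa10 knockout and control cultures of mouse muscle stem cells, known as satellite cells. They were picked by symbol for that difference in earlier results of these data, and all 4 symbols matched a row among the 50689 rows of the count table. Because the difference between the groups chose them, the size of that difference is given here as a description with no test. What the choice did not use is tested: whether the difference is of the same size in deep and shallow libraries, how levels depend on depth, how the genes vary with each other, and how their receptors and processing enzymes behaved.

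RNA was sequenced from satellite cells of the tibialis anterior muscle of C57BL6 mice, cultured on Matrigel in growth medium and labelled as proliferating. The knockout group, scKO, has the genotype Pax7-CreERT2/+;Hoxa10f/f and received 4-hydroxytamoxifen at 1 µM for 2 days (9 libraries). The control group has the genotype Hoxa10f/f (9 libraries). Both groups therefore carry the floxed Hoxa10 alleles, and Cre, 4-hydroxytamoxifen and the loss of Hoxa10 differ together; the labels give no such treatment for controls. CreERT2 is driven by Pax7, so recombination is limited to cells that express Pax7. Mouse ages are not given in the sources used here, nor is it stated that the libraries are separate animals or cultures, so p-values measure only the spread between these libraries.

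Thymic stromal lymphopoietin (Tslp) is a cytokine related to interleukin 7 that is best known from epithelial cells and fibroblasts, where it acts on immune cells. Galanin (Gal) is a neuropeptide of neurons and endocrine cells that acts on G protein-coupled receptors. Neuronal pentraxin 1 (Nptx1) is a secreted protein of synapses that gathers AMPA-type glutamate receptors. Apelin (Apln) is a peptide of endothelial cells, fat and muscle that acts on the receptor Aplnr and has been described as a factor that contracting muscle releases. Galanin and apelin are made as larger precursors, cut by proprotein convertases at pairs of basic residues, and galanin is amidated at its end.

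The stretches that encode the mature peptides of Gal and Apln are shown because they are the products whose transcript levels are described here. Both are read from GENCODE M21 transcripts (GRCm38) in coding direction, 5′ to 3′. Capitals mark the codons of the mature peptide, and lower case marks the flanking codons, which include the basic pair before each peptide.
Galanin, 29 residues, residues 33 to 61 of a precursor of 124: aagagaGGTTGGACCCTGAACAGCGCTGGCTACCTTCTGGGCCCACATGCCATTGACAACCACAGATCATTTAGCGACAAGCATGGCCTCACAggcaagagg
Apelin-13, 13 residues, residues 65 to 77 of a precursor of 77: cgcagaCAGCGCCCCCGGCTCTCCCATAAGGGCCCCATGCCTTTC

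The galanin codons lie on the minus strand of chromosome 19 between 3411601 and 3413334 and are split between exons 3 and 4 of transcript Gal-202. Those of apelin-13 lie on the minus strand of chromosome X at 48028302 to 48028340, in exon 2 of Apln-201, and end the coding sequence. The lower-case codons after galanin are a glycine and a second basic pair, the form that is processed to an amide. Tslp (ENSMUSG00000024379) lies on chromosome 18 at 32815383 to 32819797, Gal (ENSMUSG00000024907) on chromosome 19 at 3409915 to 3414544, Nptx1 (ENSMUSG00000025582) on chromosome 11 at 119538719 to 119547753 and Apln (ENSMUSG00000037010) on chromosome X at 48025146 to 48034853. The members thus share no chromosome. Their annotated precursors are 140 residues for Tslp, 124 for Gal, 432 for Nptx1 and 77 for Apln.

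Library totals were 420197 to 968559 UMI counts in 13 shallow libraries (6 scKO, 7 control) and 4346150 to 5986128 in 5 deep ones (3 scKO, 2 control), with none near the boundary of 2000000. The shallow scKO libraries are scKO 1 to 5 and 8, and the shallow controls are control 3 to 9. No count in any library was above the number of codes that a UMI of 6 bases allows (a length inferred from this ceiling), which limits counts of abundant genes at both depths; the highest count of a gene was 3956 to 4095 in 12 of the 13 shallow libraries and at the ceiling in the other and in all 5 deep ones. A principal component of log2 CPM set scKO 1 and control 7, 8 and 9 away from the remaining 9 of low depth, and member levels are given with and without these 4. Hoxa10, the targeted gene, had 1.87 to 4.77 CPM (counts relative to the library total, scaled by TMM) in shallow scKO libraries and 14.8 to 64.2 CPM in shallow controls; in deep libraries it had 6.79 to 10.3 CPM in scKO and 37.5 to 39.6 CPM in control. Its log2 fold change was -2.54 (SE 0.25, adjusted p = 3.00e-06 by edgeR). The deleted part of Hoxa10 is not given in the sources used here. All 9 satellite cell and myoblast markers of a fixed list were measured in the filtered table, from Pax7 to Myog. Their summed level was 7961 to 9771 CPM in shallow scKO and 7027 to 10680 CPM in shallow control libraries, and 2744 to 3047 CPM in deep scKO and 2681 to 3313 CPM in deep control libraries. The count ceiling limits the most abundant of these markers in deep libraries, such as Myod1 (mean 538 CPM in deep scKO and 590 CPM in deep control). The deep sums therefore cannot be set against the shallow ones, nor do they show that the deep groups are alike. A level in a culture cannot tell fewer expressing cells from less RNA per cell.

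Tslp, the cytokine, was rare in shallow controls and had its highest levels in deep scKO libraries. In shallow scKO libraries 1, 2, 3, 4, 5 and 8 it had 2, 8, 16, 16, 10 and 15 counts, or 3.0, 14.1, 17.9, 25.7, 18.7 and 23.8 CPM. Shallow controls 3 to 9 had 5, 9, 2, 6, 1, 1 and 1 counts, or 5.78, 11.5, 2.68, 9.76, 1.78, 2.32 and 2.88 CPM. Only scKO 1 fell within the range of the shallow controls, and the other 5 shallow scKO libraries lay above every one of them. The share of all genes with such a partial separation was not computed, and the contrast chose Tslp, so nothing is read from it. In deep libraries Tslp had 254, 320 and 221 counts (34.7, 40.4 and 31.2 CPM) in scKO 6, 7 and 9, against 63 and 63 counts (11.3 and 7.60 CPM) in control 1 and 2. The deep groups did not overlap.

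The mean of Tslp was 17.2 ± 8.13 CPM in shallow scKO (SD, n = 6) and 5.25 ± 3.93 CPM in shallow control libraries (SD, n = 7), a ratio of 3.28. In deep libraries it was 35.5 ± 4.64 CPM in scKO (SD, n = 3) and 9.45 ± 2.61 CPM in control (SD, n = 2), a ratio of 3.75. In the fit over all 18 libraries the log2 fold change was 1.81 (SE 0.26). The 4 libraries that stood apart held 4 of the 5 lowest shallow Tslp levels, 1.78 to 3.0 CPM, at 1 or 2 counts each. Without them the means were 20.04 ± 4.71 CPM in shallow scKO (SD, n = 5) and 7.43 ± 3.98 CPM in shallow control libraries (SD, n = 4), and the ranges, 14.1 to 25.7 CPM and 2.68 to 11.5 CPM, did not overlap. This subset was chosen after seeing the data and leaves out scKO 1, the overlapping library. The share of all genes that separate in it was not computed, and the group contrast chose Tslp, so nothing is read from this. A count of 3, taken as the floor, equals 3.10 to 7.14 CPM on unscaled totals of shallow libraries, so most shallow control levels of Tslp are known only coarsely.

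Gal, the galanin precursor, was higher in every shallow scKO library than in every shallow control, by the largest ratio of means among the 4 genes in shallow libraries. Levels in shallow scKO 1, 2, 3, 4, 5 and 8 were 169, 294, 346, 148, 103 and 216 CPM, from 113, 167, 310, 92, 55 and 136 counts. Shallow controls 3 to 9 had 86.6, 46.1, 48.3, 50.4, 39.2, 53.3 and 43.2 CPM, from 75, 36, 36, 31, 22, 23 and 15 counts. Apart from control 3, the shallow controls lay close together, while shallow scKO libraries spread from 103 to 346 CPM. Deep scKO libraries 6, 7 and 9 had 283, 238 and 239 CPM (2069, 1880 and 1688 counts), against 152 and 191 CPM (849 and 1584 counts) in deep control 1 and 2. The deep groups did not overlap either, but they lay closer together.

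The mean of Gal was 213 ± 92.2 CPM in shallow scKO (SD, n = 6) and 52.4 ± 15.8 CPM in shallow control libraries (SD, n = 7), a ratio of 4.05. In deep libraries it was 253 ± 25.9 CPM in scKO (SD, n = 3) and 172 ± 27.5 CPM in control (SD, n = 2), a ratio of 1.47. Among shallow libraries other than the 4 that stood apart, the mean of Gal was 221 ± 100.3 CPM in scKO (SD, n = 5) and 57.9 ± 19.3 CPM in control (SD, n = 4). Deep counts of Gal filled 41.2% to 50.5% of the codes of a 6-base UMI in scKO and 20.7% and 38.7% in control, so some molecules share a code there. A correction for such collisions gave 2176 to 2881 molecules in deep scKO and 951 and 2003 in deep control libraries, and a ratio of means of 1.63. Over all 18 libraries the log2 fold change was 1.51 (SE 0.25).

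Nptx1, the synaptic pentraxin, had every scKO library above every control across both depths, which held for 0.0392% of all genes tested; the contrast chose the gene, so nothing is read from this. Its levels were 270, 183, 93.7, 113, 107 and 138 CPM in shallow scKO 1, 2, 3, 4, 5 and 8, from 180, 104, 84, 70, 57 and 87 counts. Shallow controls 3 to 9 had 56.6, 67.8, 63.0, 17.9, 49.9, 67.2 and 51.9 CPM, from 49, 53, 47, 11, 28, 29 and 18 counts. Control 6 was far below the other controls, and scKO 1 held the highest level of all libraries. Deep scKO 6, 7 and 9 had 80.0, 78.8 and 71.8 CPM (585, 624 and 508 counts), against 63.1 and 57.9 CPM (352 and 480 counts) in deep control 1 and 2. The gap in deep libraries was thus small, 71.8 CPM for the lowest scKO library and 63.1 CPM for the highest control.

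The mean of Nptx1 was 151 ± 66.4 CPM in shallow scKO (SD, n = 6) and 53.5 ± 17.2 CPM in shallow control libraries (SD, n = 7), a ratio of 2.82. Leaving out scKO 1 and control 7, 8 and 9, the mean was 127 ± 35.4 CPM in scKO (SD, n = 5) and 51.3 ± 22.8 CPM in control (SD, n = 4). In deep libraries the means were 76.9 ± 4.44 CPM in scKO (SD, n = 3) and 60.5 ± 3.68 CPM in control (SD, n = 2), a ratio of 1.27. Over all 18 libraries the log2 fold change was 1.09 (SE 0.23).

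Apln, the apelin precursor, was the one gene of the 4 that was lower in scKO. Shallow scKO 1, 2, 3, 4, 5 and 8 had 25.5, 21.1, 6.69, 11.3, 5.61 and 6.36 CPM, from 17, 12, 6, 7, 3 and 4 counts. In shallow controls 3 to 9 the levels were 15.01, 16.6, 28.2, 21.2, 21.4, 20.8 and 25.9 CPM, from 13, 13, 21, 13, 12, 9 and 9 counts. The groups overlapped: scKO 1 and 2 lay among the controls, and the other 4 shallow scKO libraries lay below them all. Deep scKO 6, 7 and 9 had 15.46, 8.85 and 14.98 CPM (113, 70 and 106 counts), against 36.2 and 22.7 CPM (202 and 188 counts) in deep control 1 and 2, with no overlap. Over both depths 6 of 9 scKO libraries lay below every control. All 9 did so for 0.0261% of genes tested, which Apln is not among. The share of genes with such a partial separation was not computed, and the contrast chose Apln, so nothing is read from it.

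The mean of Apln was 12.8 ± 8.52 CPM in shallow scKO (SD, n = 6) and 21.3 ± 4.66 CPM in shallow control libraries (SD, n = 7), a ratio of 0.599. Leaving out the same 4 libraries, the mean was 10.2 ± 6.49 CPM in scKO (SD, n = 5) and 20.2 ± 5.88 CPM in control (SD, n = 4). In deep libraries it was 13.1 ± 3.69 CPM in scKO (SD, n = 3) and 29.4 ± 9.57 CPM in control (SD, n = 2), a ratio of 0.445. Over all 18 libraries the log2 fold change was -0.98 (SE 0.23).

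**Figure D1:**
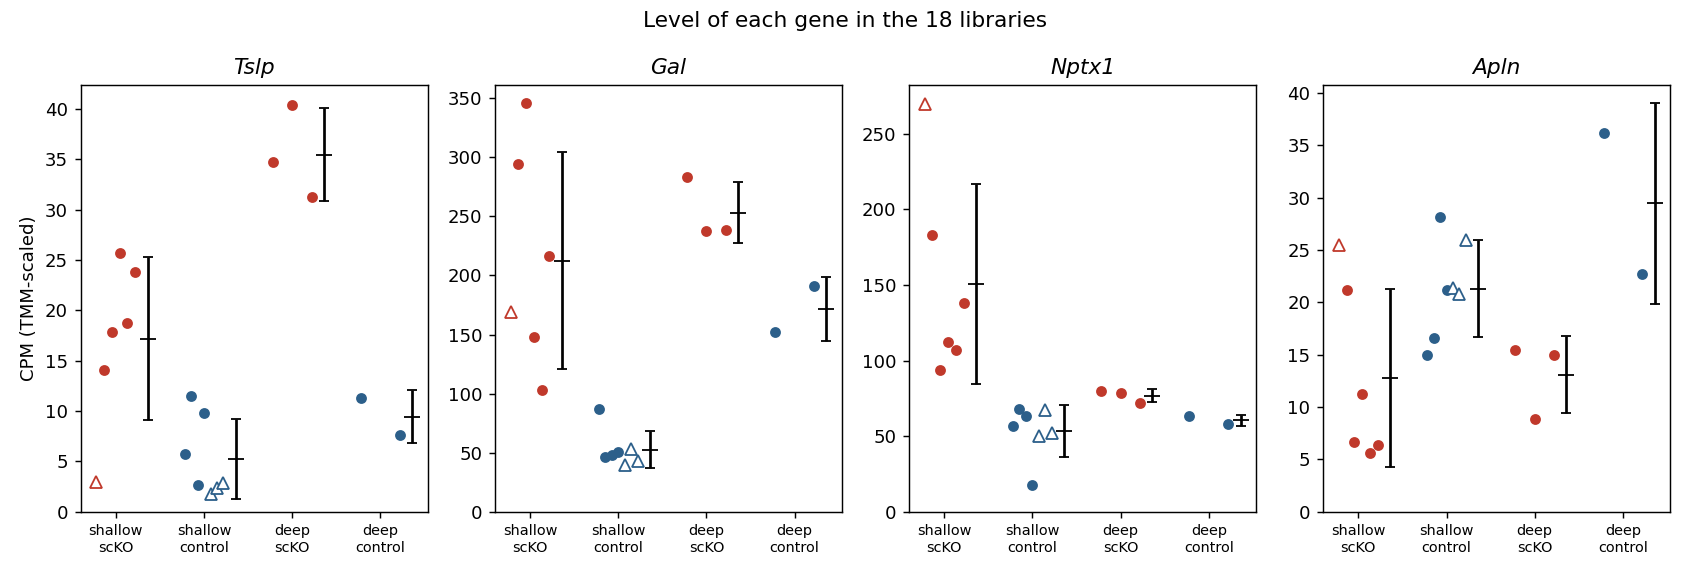
Level of Tslp, Gal, Nptx1 and Apln in each of the 18 libraries, in CPM on TMM-scaled totals, with scKO libraries in red and control libraries in blue. Open triangles are scKO 1 and control 7, 8 and 9, which stood apart, and bars give the mean ± SD of each class. Nptx1 is the gene with no overlap between all 9 scKO and all 9 control libraries.

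With group and depth in 1 model, edgeR called 52 of 7662 genes at an adjusted p under 0.05, which is 0.679% of them. It called 0.326% of genes higher and 0.352% lower, and the 4 genes are among these calls; since that contrast chose them, nothing is read from it. Within shallow libraries every scKO library lay above every control for Gal and Nptx1, as it did for 0.196% of genes tested. Within deep libraries, with 3 against 2 libraries, every scKO library lay above every control for 24.7% of genes and below for 23.5%, so the lack of overlap of the 4 genes there is common among genes.

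The order of the class means differed among the genes. For Tslp and Gal it ran, from high to low, deep scKO, shallow scKO, deep control and shallow control; for Nptx1 shallow scKO came first, then deep scKO, deep control and shallow control. Apln was highest in deep control, followed by shallow control, deep scKO and shallow scKO. Several neighbours in these orders overlapped: deep and shallow scKO for Gal and Apln, shallow scKO and deep control for Tslp and Gal, deep and shallow control for Tslp, Nptx1 and Apln, and shallow control and deep scKO for Apln. Deep scKO lay above every shallow scKO library for Tslp and below every one for Nptx1.

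With the group as a covariate, Tslp was higher in deep than in shallow libraries, with a log2 difference of 0.94 (SE 0.24, adjusted p = 0.00180 by edgeR), and so was Gal, with 0.91 (SE 0.25, adjusted p = 0.00366 by edgeR). Nptx1 had a log2 difference of -0.46 (SE 0.25, adjusted p = 0.115 by edgeR) and Apln 0.29 (SE 0.23, adjusted p = 0.279 by edgeR), neither past the threshold. Tslp passed the filter on low counts mainly through scKO libraries and Apln mainly through controls, the groups where they are higher. With no filter the log2 difference was 0.94 for Tslp (SE 0.21, adjusted p = 6.16e-05 by edgeR) and 0.30 for Apln (SE 0.20, adjusted p = 0.309 by edgeR). Such a difference was common, since 60.4% of the genes tested differed between deep and shallow libraries, 30.4% higher and 30% lower in deep ones.

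The size of the scKO difference was compared between the depths, and for none of the 4 genes did the comparison pass after adjustment. For Gal the log2 fold change was 0.56 (SE 0.34) in deep and 2.00 (SE 0.24) in shallow libraries, and for Nptx1 it was 0.35 (SE 0.35) in deep and 1.49 (SE 0.25) in shallow libraries. Tslp had 1.93 (SE 0.32) in deep and 1.57 (SE 0.42) in shallow libraries. Apln had -1.16 (SE 0.29) in deep and -0.73 (SE 0.35) in shallow libraries. The difference between the depths, tested as an interaction, was -1.44 for Gal (SE 0.41, adjusted p = 0.424 over all genes by edgeR) and -1.14 for Nptx1 (SE 0.42, adjusted p = 0.597 by edgeR). It was 0.35 for Tslp (SE 0.55, adjusted p = 0.969 by edgeR) and -0.43 for Apln (SE 0.46, adjusted p = 0.969 by edgeR). Tslp and Apln entered this test mainly through the group where each is higher. Over all genes edgeR called 0% of the 7662, with 473 at an unadjusted p under 0.05. Gal (unadjusted p = 0.00183 by edgeR) and Nptx1 (unadjusted p = 0.0132 by edgeR) were among these 473. The lack of a call does not show that their difference is alike at both depths. When genes with low counts were kept in the fit, the interaction of Gal passed (-1.48, SE 0.31; edgeR adjusted p = 0.0102). With counts corrected for collisions it was -1.32 (SE 0.42, adjusted p = 0.436 by edgeR).

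**Figure D2:**
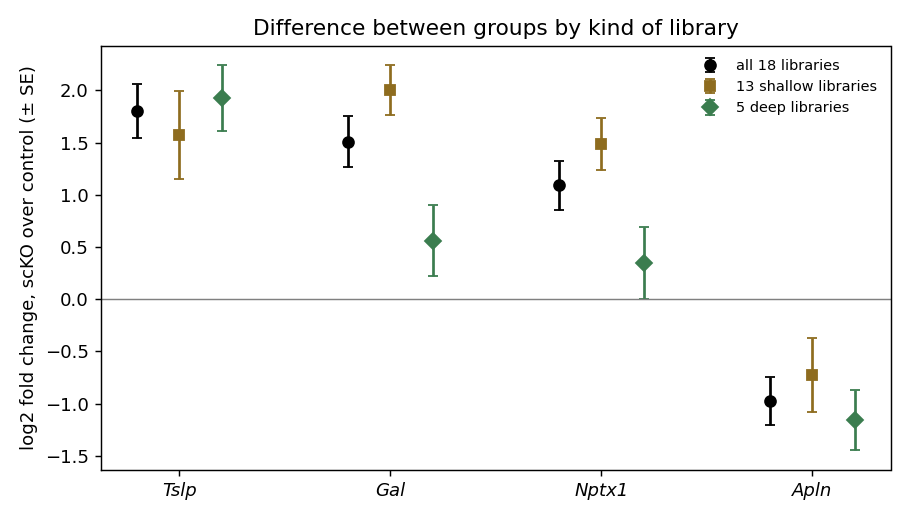
Log2 fold change of scKO over control for each gene, with its SE, from the fit over all 18 libraries (black circles) and for the 13 shallow (brown squares) and 5 deep libraries (green diamonds) from the fit with an interaction. Gal and Nptx1 had smaller values in deep than in shallow libraries, and Tslp and Apln had values of like size.

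The coefficient of variation between libraries of a class was above the value from counting in most classes of the 4 genes. These values were compared with no test. The deep classes hold only 3 scKO and 2 control libraries, too few to show a small excess such as that of Nptx1. Among shallow scKO libraries the coefficient of variation was 43.3% for Gal and 44.1% for Nptx1, where counting alone would give about 8.29% and 10.2% at the mean count. In shallow controls it was 30.1% for Gal and 32.2% for Nptx1, against 17.2% and 17.3% from counting. Tslp had 47.3% in shallow scKO and 75.0% in shallow control libraries, against 29.9% and 52.9% from counting. For Apln it was 66.8% in shallow scKO and 21.9% in shallow control libraries, against 35.0% and 27.9%, so the shallow controls showed no spread of Apln beyond counting. In deep libraries Nptx1 varied by 5.77% in scKO and 6.09% in control, against 4.18% and 4.90% from counting. Gal varied there by 10.3% in scKO and 16.0% in control, against 2.31% and 2.87%. Deep Tslp varied by 13.1% in scKO and 27.7% in control, against 6.14% and 12.6%, and deep Apln by 28.2% in scKO and 32.5% in control, against 10.2% and 7.16%.

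Whether the 4 genes vary together from library to library was examined within the shallow classes. Pearson correlations of log2 CPM were computed for the 6 pairs of genes within shallow scKO and within shallow control libraries, 12 relations in all, and none passed Benjamini-Hochberg adjustment of the exact two-sided permutation p. The closest was Nptx1 with Apln in shallow scKO libraries (r = 0.86, exact permutation p = 0.0236, adjusted p = 0.189; Spearman rho = 0.71, exact p = 0.136, adjusted p = 0.794; n = 6). It rested on 2 libraries, scKO 1 and 2, without which r was 0.0058. Tslp was opposed to Nptx1 there (r = -0.84, exact permutation p = 0.0472, adjusted p = 0.189; Spearman rho = -0.49, exact p = 0.356, adjusted p = 0.794; n = 6), and r was -0.36 without the 2 libraries farthest from the median of Tslp. Tslp with Apln had r = -0.73 (exact permutation p = 0.0431, adjusted p = 0.189; Spearman rho = -0.60, exact p = 0.242, adjusted p = 0.794; n = 6) and -0.80 without such libraries.

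Gal in shallow scKO libraries had r of 0.025 for Tslp, 0.023 for Nptx1 and 0.16 for Apln (exact permutation p = 0.972, 0.974 and 0.764; n = 6). In shallow controls the 6 values of r ran from -0.61 for Gal with Apln to 0.28 for Tslp with Gal (exact permutation p = 0.146 and 0.621, adjusted p = 0.438 and 0.974; n = 7). Without the 2 libraries farthest from the median of Tslp, r for Tslp with Gal in the 5 remaining controls was 0.92, and for Gal with Apln without the 2 farthest in Gal it was -0.18. Of these 7 controls 3 stood apart, and without the 4 libraries 5 scKO and 4 control libraries remain, fewer than the 6 taken here as the least for a correlation. Counts of 1 to 16 for Tslp and 3 to 21 for Apln limit what these correlations can show.

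**Figure D3:**
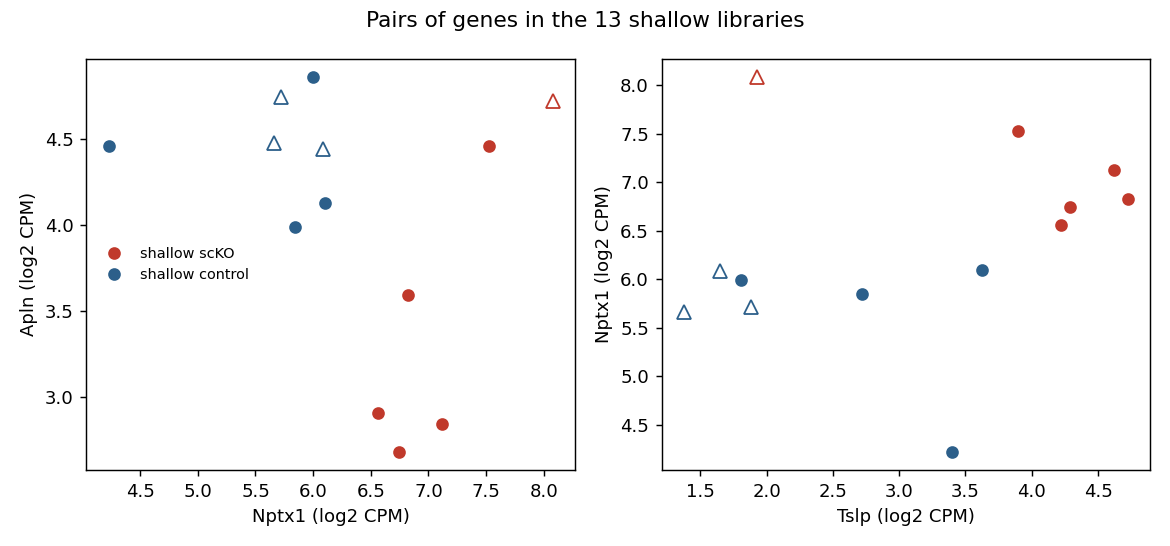
Log2 CPM of Apln against Nptx1 (left) and of Nptx1 against Tslp (right) in the 6 shallow scKO (red) and 7 shallow control libraries (blue). Open triangles are scKO 1 and control 7, 8 and 9. Without scKO 1 and 2, which hold the highest Nptx1, the correlation of Apln with Nptx1 in scKO libraries is 0.0058.

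Genes whose level moved most like each member from library to library were found after subtracting the mean of each of the 4 classes, among about 6350 genes with at least 20 CPM on average. These values describe the 18 libraries and share their depth and composition. They are the highest among all those genes, and the level that unrelated genes would reach was not computed. The order depended on the 4 libraries that stood apart: without them only Mien1 of the 20 nearest genes was still among the 5 nearest to its member. For Tslp the nearest were Ptpn12, a tyrosine phosphatase (r = 0.92), Irf2bp2, Kat6a, Igfbp4 and Psmd3 (r = 0.91 each). Without the 4 libraries that stood apart, r was 0.73 for Ptpn12, 0.76 for Irf2bp2, 0.87 for Kat6a, 0.84 for Igfbp4 and 0.74 for Psmd3 over 14 libraries, at ranks 88, 65, 6, 16 and 82. For Gal the nearest was Creb3l1, a membrane-bound transcription factor of the endoplasmic reticulum (r = 0.81, and 0.86 at rank 8 without the 4 libraries), followed by Spast, a microtubule-severing enzyme (r = 0.80, and 0.80 at rank 22).

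Nptx1 was followed most closely by Mien1 (r = 0.88, and 0.92 at rank 3 without the 4 libraries) and by Igfbp5, which binds insulin-like growth factors (r = 0.84, and 0.88 at rank 9). Igfbp5 also rose in scKO, with a log2 fold change of 0.89 (SE 0.14, adjusted p = 0.00112 by edgeR), the only call among the 20 nearest genes named by this rule. For Apln the nearest were Degs1, an enzyme of ceramide synthesis (r = 0.84, and 0.76 at rank 16), and Frrs1 (r = 0.83, and 0.75 at rank 19), and the third was Col4a2, a collagen chain of basement membranes (r = 0.82, and 0.74 at rank 23).

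Receptors for galanin and apelin were near or at 0 in these libraries. Crlf2, the receptor chain specific for Tslp, was detected in every library, with 8 to 18 counts in shallow scKO and 10 to 18 in shallow control libraries, and 101 to 130 in deep scKO and 73 and 88 in deep control libraries. Its log2 fold change was 0.06 (SE 0.18, adjusted p = 0.934 by edgeR). Il7r, the chain that completes the Tslp receptor, had 1 count in all 18 libraries, in a deep scKO library. Galr1 had 0 counts, and Galr2 had 3, 1 in each deep scKO library. The apelin receptor Aplnr had 1 count over the 9 scKO and 2 over the 9 control libraries, and Apela, the second ligand of that receptor, had 2 in scKO and 1 in control. Galr3, the remaining galanin receptor, was not analysed here.

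The nearest paralog of Nptx1, Nptx2, had 2 counts over the 9 scKO and 0 over the 9 control libraries. Nptxr, the membrane-bound member of that family, was present in every library, with 4 to 12 counts in shallow scKO and 4 to 22 in shallow control libraries, and 59 to 79 in deep scKO and 63 and 96 in deep control libraries. It did not pass the filter on low counts. Gria3, a subunit of the AMPA-type receptors that neuronal pentraxins bind, was the AMPA subunit that passed it, with a log2 fold change of 0.36 (SE 0.18, adjusted p = 0.442 by edgeR). Gria1, Gria2 and Gria4 had 0 counts in all libraries.

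Of 166 genes in 14 lists of receptors, signalling partners, related peptides, processing enzymes and markers, 49 passed the filter on low counts. With edgeR 0 of these 49 were called, 1 had an unadjusted p under 0.05, DESeq2 called 1 and limma-voom 0. Over all 7662 genes tested, edgeR called 0.679%, and 911 had an unadjusted p under 0.05. DESeq2 called 390 genes in all and limma-voom 101. The 1 list gene with an unadjusted p under 0.05, also the one DESeq2 called, was Gnai1. It is an inhibitory G protein subunit of the kind the apelin receptor couples to. Gnai1 had 13.1 ± 6.60 CPM in shallow scKO (SD, n = 6) and 26.8 ± 10.4 CPM in shallow control libraries (SD, n = 7), and 24.5 ± 2.64 CPM in deep scKO (SD, n = 3) and 41.7 ± 10.5 CPM in deep control libraries (SD, n = 2). Its log2 fold change was -0.87 (SE 0.22, adjusted p = 0.0603 by edgeR and 0.00334 by DESeq2). The other 3 tested genes of the apelin list, Gnai2, Gnai3 and Arrb2, had values from -0.20 to 0.06.

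In the list for Tslp signalling, 5 of 10 genes were tested, with 4 positive and 1 negative value and a median log2 fold change of 0.08, beside -0.01 over all genes tested. Stat3, one of its transcription factors, had 0.34 (SE 0.17, adjusted p = 0.433 by edgeR), and it passed in deep libraries fitted alone (0.29, adjusted p = 0.0398 by edgeR), a fit that called 1884 of 13136 genes. Related cytokines were represented by Csf1 (-0.18, SE 0.14; edgeR adjusted p = 0.677) and Il34 (0.11, SE 0.18; edgeR adjusted p = 0.876), which both act on the Csf1 receptor, and the other 10 of that list did not pass the filter.

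Enzymes that process prohormones were well represented, with 9 of 17 tested, 3 positive and 6 negative, at a median of -0.01. Pam, chosen for its role after its value was seen, amidates peptides such as galanin and had a log2 fold change of 0.08 (SE 0.13, adjusted p = 0.876 by edgeR). The carboxypeptidases Cpe and Cpd had -0.22 (SE 0.13, adjusted p = 0.524 by edgeR) and 0.25 (SE 0.15, adjusted p = 0.539 by edgeR). Of 38 other secreted peptide precursors only Adm, adrenomedullin, passed the filter, with a log2 fold change of -0.60 (SE 0.38, adjusted p = 0.584 by edgeR), and 7 of the 38 had 0 counts in all libraries. The value of Adm was -0.16 without control 1, -0.33 without control 6 and -0.00075 in shallow libraries fitted alone. Adm is also induced by low oxygen, as is Apln. Of the 18 genes of the hypoxia list 13 were tested, 6 positive and 7 negative, with a median of -0.07. The highest was P4ha2, a collagen prolyl hydroxylase, at 0.40 (SE 0.21, adjusted p = 0.476 by edgeR).

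Markers of other cell types that the cultures could hold were summed by list. Endothelial markers, of interest for Apln, summed to 8.92 to 54.0 CPM in shallow scKO and 8.09 to 84.6 CPM in shallow control libraries, and to 19.6 to 28.8 CPM in deep scKO and 14.2 to 43.0 CPM in deep control libraries. None of these 8 markers passed the filter, and their part in the level of Apln was not tested. Epithelial markers, of interest for Tslp, summed to 7.49 to 19.0 CPM in shallow scKO and 0 to 10.4 CPM in shallow control libraries, and to 8.62 to 19.3 CPM in deep scKO and 5.92 to 6.63 CPM in deep control libraries; Krt5, Krt14 and Krt8 had 0 counts in all libraries. Trp63, a transcription factor of basal epithelium, had 5.40 ± 2.77 CPM in shallow scKO and 1.64 ± 2.95 CPM in shallow control libraries, and 6.12 ± 2.06 CPM in deep scKO and 1.29 ± 0.560 CPM in deep control libraries (SD). Krt18, a keratin of simple epithelium, had 6.88 ± 3.16 CPM in shallow scKO and 1.94 ± 2.39 CPM in shallow control libraries, and 5.80 ± 2.82 CPM in deep scKO and 4.05 ± 0.610 CPM in deep control libraries (SD). Both were higher on average in scKO at each depth, as Tslp was, and were named after their values were seen. Other genes of the list did not share this direction throughout. Cdh1 had 0.665 CPM in shallow scKO and 1.06 CPM in shallow control, and 1.48 CPM in deep scKO and 0.812 CPM in deep control libraries on average. Epcam had 0 CPM in both shallow classes, 0.0842 CPM in deep scKO and 0.121 CPM in deep control libraries. The part of these epithelial markers in the level of Tslp was not tested. Leukocyte markers summed to 0 to 11.2 CPM in shallow scKO and 2.32 to 8.91 CPM in shallow control libraries, and to 5.18 to 14.1 CPM in deep scKO and 3.23 to 6.87 CPM in deep control libraries. Fibro-adipogenic markers summed to 45.0 to 100.1 CPM in shallow scKO and 61.7 to 131.8 CPM in shallow control libraries, which overlapped, and to 57.2 to 68.8 CPM in deep scKO and 46.1 to 51.4 CPM in deep control libraries, which did not. Such a lack of overlap is common in deep libraries, where every scKO library lay above every control for 24.7% of genes tested and below for 23.5%.

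Schwann cell and neuron markers, of interest for Gal, summed to 81.0 to 214.5 CPM in shallow scKO and 113.9 to 475.8 CPM in shallow control libraries, and to 119.1 to 163 CPM in deep scKO and 68.7 to 73.1 CPM in deep control libraries. Of the 10 markers 3 passed the filter. Sox10, a transcription factor of the Schwann cells in this list, had 32.4 ± 22.7 CPM in shallow scKO (SD, n = 6) and 85.2 ± 53.8 CPM in shallow control libraries (SD, n = 7), and 24.8 ± 7.10 CPM in deep scKO (SD, n = 3) and 6.51 ± 2.21 CPM in deep control libraries (SD, n = 2). Ngfr had means of 65.2 CPM in shallow scKO and 152.4 CPM in shallow control libraries, and 56.05 and 26.3 CPM in deep ones. Erbb3, the remaining tested marker, had 41.0 and 52.0 CPM in shallow scKO and control libraries, and 56.8 and 35.5 CPM in deep ones. Fitted in deep libraries alone, Sox10 rose in scKO (log2 fold change 1.96, adjusted p = 0.00386 by edgeR), as did Ngfr (1.10, adjusted p = 0.0137 by edgeR). Over all 18 libraries Sox10 had -0.30 (SE 0.58, adjusted p = 0.898 by edgeR) and Ngfr -0.52 (SE 0.43, adjusted p = 0.695 by edgeR). Erbb3 had 0.05 over all 18 libraries (SE 0.20, adjusted p = 0.967 by edgeR). A call in the fit of deep libraries alone, with 3 scKO and 2 control libraries, was common: 1884 of 13136 genes had one. Snap25 and Elavl4 had 0 counts in all libraries. The part of these markers in the level of Gal was not tested.

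**Figure D4:**
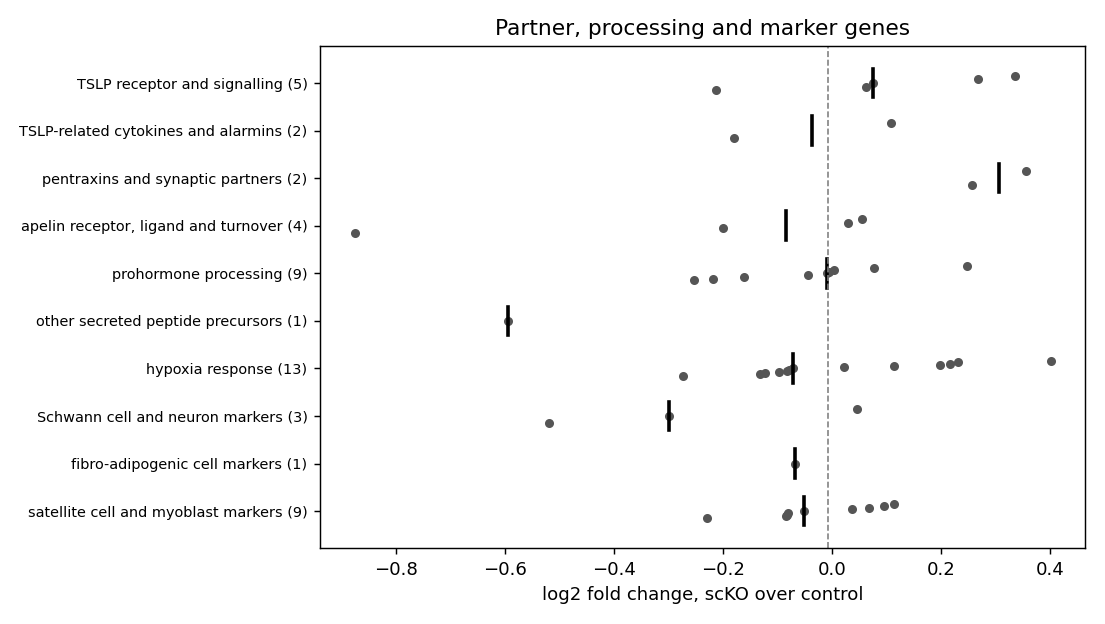
Log2 fold change of scKO over control for each tested gene of the lists that held any (points), with the median of each list (bars) and the median of all genes tested (dashed line). The number of tested genes is in brackets, and the point farthest to the left is Gnai1 at -0.87.

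The nearest tested genes on either side were Bin1 and Wdr36 for Tslp, Cpt1a and Ppp6r3 for Gal, Rnf213 and Rptor for Nptx1, and Ocrl and Zdhhc9 for Apln, at 17428 to 379646 bases. Their log2 fold changes ran from -0.09 for Rnf213 to 0.28 for Bin1 (SE 0.19 and 0.10), and their adjusted p by edgeR from 0.23 to 0.971. Tslp overlaps 1 annotated gene, which had 0 counts, and the other 3 members overlap none.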

How the data were processed

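The authors deposited raw UMI counts per gene for 18 libraries (the unit is read from the table's name and whole-number values). Per the submitters' processing notes, the tools include HISAT2 and HTSeq, with no version, and the build is Rnor_6.0, of rat. The rows are mouse Ensembl genes and were used as deposited. Annotation release, strand use and UMI length are not given in the sources used here. Symbols and positions came from GENCODE M21 (GRCm38); 50376 rows had a symbol, and the other 313 held 0.041% of counts.

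The 4 genes and all lists were chosen with earlier results of these data known. Counts were filtered with filterByExpr (7662 genes), scaled by TMM on totals over all rows and fitted with the quasi-likelihood test of edgeR 4.0.16 (R 4.3.3), with the group and depth class (over or under 2000000 counts), Benjamini-Hochberg adjustment and a threshold of 0.05. An interaction was added for the difference between depths. Log2 CPM used a prior count of 2. Alternatives used DESeq2 1.42.0 and limma 3.58.1. Collision correction assumed UMIs of 6 bases, inferred from the ceiling of the counts. Members were correlated by exact permutation within shallow classes. Named genes were the 4 members, receptors and paralogs, the 5 genes most correlated with each member, the nearest tested neighbours, and up to 4 genes with the smallest p per list; correlations used genes of at least 20 CPM on average. Leaving out the 4 libraries that stood apart, for member levels and for these correlations, was chosen after seeing the data. The fit was tested on simulated data. A count of 3 in a library equals 0.501 to 7.14 CPM on unscaled totals. Same-group libraries of a depth class differed by more than sampling noise in every pair. Positions are given as in GRCm38.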

Additional observations from a re-analysis of the deposited data

Results flagged for a closer look

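In a check of 16 groups of libraries for 1 value far from the rest, 3 were marked; chance marks about 1 in 20 groups. Among the 7 shallow controls, control 3 had 86.6 CPM of Gal, far above the other 6. Control 6 had 17.9 CPM of Nptx1, far below the other shallow controls, and it was marked again among all 9 controls. No explanation was tested for either library.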

How the results depend on the processing

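The scKO calls over all genes depended strongly on the setting. edgeR called 52 genes, against 1 with the group alone, 3 in shallow and 1884 in deep libraries, 359 with no filter on low counts, 159 with a mean count of at least 10, 390 by DESeq2, 101 by limma-voom and 619 without the 4 libraries that stood apart. With 1 library left out it called 11 to 215: 215, 33, 20, 26, 12, 13, 18 and 18 when scKO 1, 2, 3, 5, 6, 7, 8 or 9 was dropped, and 11, 15, 24, 25 and 96 when control 1, 2, 3, 4 or 7 was. The cause was not tested. The main fit used no pairing by replicate number, and the values do not settle whether there is any. Same-numbered libraries correlated from -0.066 to 0.25, with 5 of 9 over 0.1, and 5 of 18 libraries correlated best with their own number. With a replicate block 14 genes were called. The SE of Gal was then 0.13 in place of 0.25, and that of Tslp 0.33 in place of 0.26. All 4 members kept their direction in every setting in which they were tested. Each setting refits, on the same libraries, the contrast that chose them, so nothing is read from this or from the ranges below. Beside the values above, Gal moved to a log2 fold change of 2.00 in shallow and 0.54 in deep libraries fitted alone, and Nptx1 to 0.33 in deep ones; Tslp failed the filter in shallow libraries fitted alone. With 1 library left out, Tslp ranged from 1.61 to 1.92, Gal from 1.35 to 1.67, Nptx1 from 0.89 to 1.20 and Apln from -1.13 to -0.76. The interaction called 0 genes, and 30 without the filter. Without the filter Nptx1 also differed between deep and shallow libraries (-0.45, adjusted p = 0.0309 by edgeR). The pairs that passed stayed at 0 in every setting run. Runs without a shallow scKO library keep 5 of them, fewer than the 6 taken as the least. There a scKO pair could hardly pass by exact permutation, so nothing is read from those runs for scKO pairs. Uncalled genes crossed 0: Crlf2 with the group alone (-0.16), in shallow libraries (-0.22) and with the block (-0.032); Il34 in shallow libraries (-0.020); Sox10 in deep libraries (1.96), by limma-voom (0.20) and without the 4 libraries (0.67); and Ngfr in deep libraries (1.10) and without the 4 (0.18). With 1 library left out, Crlf2 ranged from -0.064 to 0.14 and Pam from -0.0058 to 0.13. Gnai1, not called by edgeR over all libraries, passed in deep libraries alone, with no filter, with a mean count of at least 10, by DESeq2, without the 4 libraries, and without control 3, control 7 or scKO 1. Stat3 passed in deep libraries alone. Shallow counts of Tslp and Apln and the count ceiling for Gal limit precision.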
